A study of Mus musculus with 98 samples.

Results

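Mbp, Mog, Mag, Mobp, Cnp, Opalin, Cldn11 and Ermn are 8 genes of the myelin sheath and of the mature oligodendrocytes that make it. They were taken by symbol from a table of mouse genes, where they are 8 of 20415 rows, and are described here in the 44 libraries of 2 hypothalamic regions: ARC, the arcuate nucleus at the floor of the third ventricle, and SCN, the suprachiasmatic nucleus above the optic chiasm. The series holds 98 samples and asks how the clocks of liver cells take part in timing the body's daily rhythms.

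All mice were FRGN animals, which carry the Fah-/-, Rag2-/- and Il2rg-/- alleles on a cross to the non-obese diabetic strain and therefore lack mature lymphocytes in every group compared here. They were males of 10 weeks on PicoLab high energy diet, cycled on nitisinone (NTBC, which protects hepatocytes without Fah) and on the antibiotic pair sulfamethoxazole and trimethoprim. In the Hu arm the liver had been repopulated with human hepatocytes, and animals above 70% repopulation were kept. In the Mu arm, the control, it had been repopulated with murine hepatocytes. The brain cells are the host's own in both arms. Tissue was taken at zeitgeber times (ZT, the hours of the light cycle) 2, 6, 10, 14, 18 and 22. Each region has 12 Mu and 10 Hu libraries, with 2 per arm and time except in Hu at ZT 6 and ZT 22, which have 1. The labels do not say whether libraries with different numbers come from separate animals, so the p-values measure the spread between these libraries, which may be technical.

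Oligodendrocytes wrap axons in many turns of membrane, which insulates them and speeds conduction. Mbp holds the inner faces of that membrane together and Mobp is another abundant protein of compact central myelin. Mag sits on the innermost turn, facing the axon, Mog on the outermost surface, and Cnp in the cytoplasm-filled parts. Cldn11 builds the tight junctions of the sheath. Opalin is a membrane glycoprotein of oligodendrocytes and Ermn a cytoskeletal protein that appears late in their maturation.

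The results on region turn on Mag and those on time of day on Opalin, Cldn11 and Ermn, so the bases just before the first exon of these 4 genes are shown. They are from RefSeq on GRCm38.p6, written 5′ to 3′ on the gene's strand. Capitals mark 2 short motifs on either strand, the core ACAAAG bound by SOX proteins and the core CTGGCAC or CTGGTAC bound by the oligodendrocyte regulator MYRF. The windows are chr7:30914874-30915113 on the minus strand for Mag, chr19:41077114-41077363 on the minus strand for Opalin, chr3:31149670-31149919 on the plus strand for Cldn11 and chr2:58052865-58053114 on the minus strand for Ermn.
Mag: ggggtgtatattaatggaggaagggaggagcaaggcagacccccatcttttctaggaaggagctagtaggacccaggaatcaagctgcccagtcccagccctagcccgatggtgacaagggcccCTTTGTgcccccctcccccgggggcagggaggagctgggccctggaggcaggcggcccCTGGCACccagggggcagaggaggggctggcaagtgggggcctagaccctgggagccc
Opalin: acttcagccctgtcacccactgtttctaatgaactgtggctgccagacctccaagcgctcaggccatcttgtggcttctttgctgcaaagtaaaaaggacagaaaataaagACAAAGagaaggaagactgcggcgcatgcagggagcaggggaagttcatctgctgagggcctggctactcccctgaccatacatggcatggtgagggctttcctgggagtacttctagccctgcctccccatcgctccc
Cldn11: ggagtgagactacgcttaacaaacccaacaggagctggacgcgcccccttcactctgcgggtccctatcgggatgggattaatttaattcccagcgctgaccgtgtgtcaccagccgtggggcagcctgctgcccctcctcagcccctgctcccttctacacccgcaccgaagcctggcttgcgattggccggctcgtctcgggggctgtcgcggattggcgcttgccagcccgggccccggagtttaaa
Ermn: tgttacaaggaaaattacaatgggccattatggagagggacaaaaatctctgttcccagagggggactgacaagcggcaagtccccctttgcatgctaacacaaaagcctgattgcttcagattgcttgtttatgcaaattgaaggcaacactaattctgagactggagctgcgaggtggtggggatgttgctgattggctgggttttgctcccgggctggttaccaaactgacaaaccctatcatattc
The window of Mag has 240 bases, since an annotated exon follows, and the other 3 have 250. Mag holds 1 SOX core and 1 MYRF core, Opalin holds 1 SOX core, and neither string occurs in the windows of Cldn11 and Ermn. Over the 250 bases before the RefSeq start of 7 of the genes, that of Mag not shortened, 4 held a SOX core (Mag, Mobp, Cnp and Opalin) and 3 held a MYRF core (Mog, Mag and Cnp), where 16.5% and 5.94% of 32536 promoter windows of that length did. Mobp alone had 6 SOX cores. None of the 7 windows held the E-box CACGTG or the site AGGTCA, the letters read by CLOCK and BMAL1 and by ROR and REV-ERB proteins, which were in 6.04% and 14.04% of windows. A match describes the letters only.

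Total counts were 23.7 to 47.1 M (mega) per ARC library and 25.5 to 34.9 M per SCN library. ARC libraries carried the ARC neuron genes, whose summed level in CPM (counts scaled to a library of 1 M) lay between 131.9 and 268.6, above every one of the 22 SCN libraries at 29.1 to 97.7. Of the 6 ARC neuron genes tested, 5 were lower in SCN. Tac2, with a log2 difference of SCN from ARC of -0.34, was not called, and Kiss1, also listed, had no row. The SCN label went against most of its own markers. Of 8 SCN neuron genes, 5 (Rgs16, Six6, Grp, Lhx1 and Avp) were lower in SCN than in ARC libraries and only Prok2 was higher. Of all genes tested, 37.2% were lower in SCN and 36.5% higher. Vip (log2 difference of SCN from ARC 0.16) and Nms (0.42) were not called. In 18 of 22 SCN libraries the list's sum lay below the lowest ARC library. Every statement on SCN below refers to the libraries labelled SCN. Genes of neurons and axons were higher in SCN for 9 of 10, against the 36.5% of all genes. The exception was Slc17a6, with a log2 difference of -1.79. The summed level of the 10 in each of the 22 SCN libraries (5106 to 7721 CPM) exceeded the highest ARC library (4989 CPM).

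Each of the 8 genes was detected in both regions, at levels that differed widely between genes. In CPM scaled to library size, divided by the length of the gene's merged exons so that genes can be compared, the ARC level was 259.7 CPM per kb for Mbp, 103.8 for Mobp, 77.9 for Cnp, 53.2 for Cldn11, 32.0 for Mag, 29.0 for Mog, 20.2 for Ermn and 5.71 for Opalin. SCN gave 278.6 for Mbp and 6.45 CPM per kb for Opalin, again the ends of the order, while Mag at 41.1 lay nearest below Cldn11 at 56.1. Together the 8 genes took 0.285% to 0.427% of ARC counts and 0.258% to 0.445% of SCN counts. In 27 skeletal muscle libraries of the same table, whose depths were 43.1 to 92.1 M, Ermn had 0 counts in 27 of 27, which allows up to 0.0326 to 0.0696 CPM at 3 counts. Mog had at most 3 counts, Mobp and Opalin at most 2 and Cldn11 at most 16. Mag (46 to 156 counts) and Cnp (362 to 1185 counts) were detected in each muscle library, and their ARC means were 111.4 and 26.8 times the muscle means. Mbp, also a protein of peripheral nerve myelin, was at 29.1 ± 6.77 CPM in muscle (SD, n = 27), and its ARC mean was 75.7 times that.

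**Figure D1:**
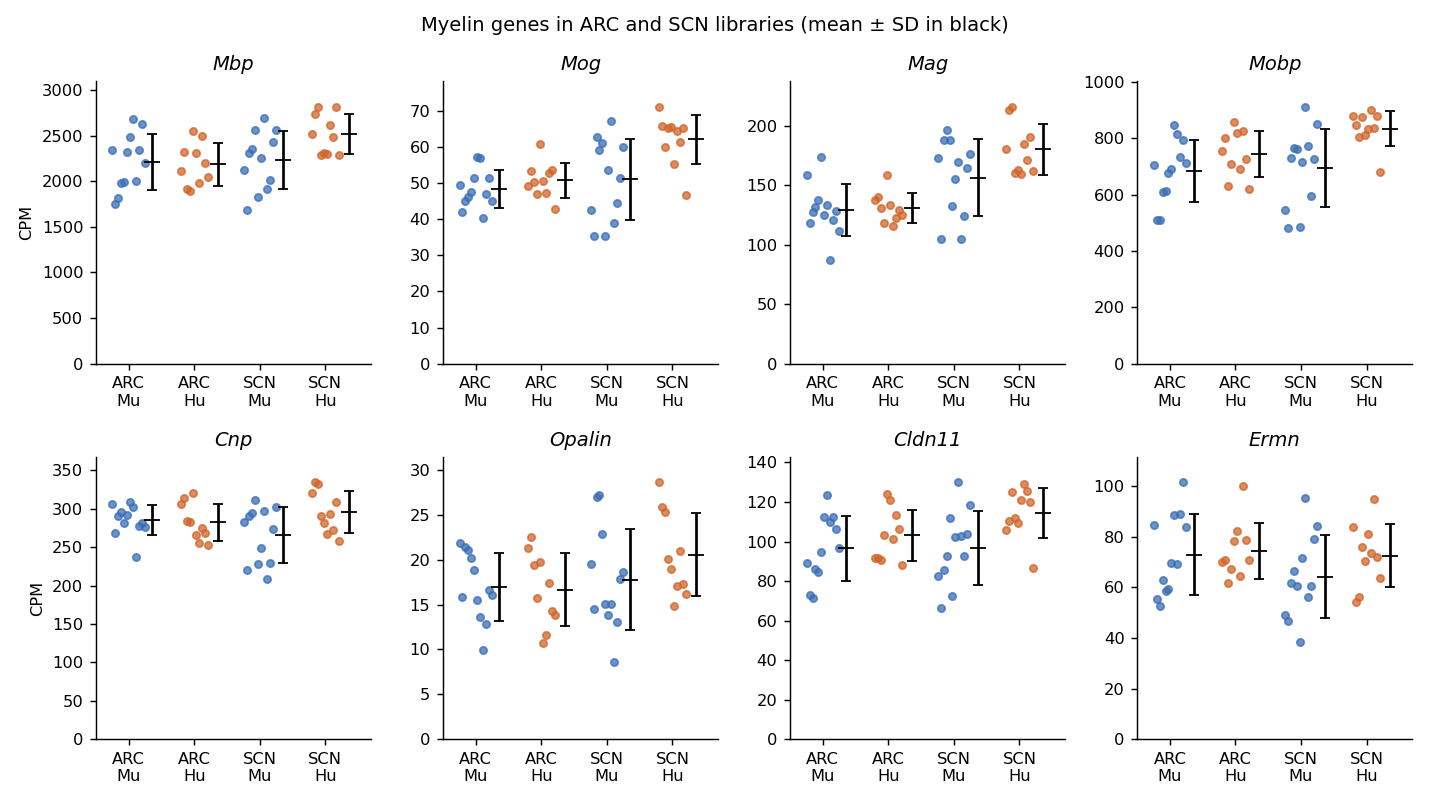
Level in CPM (vertical axis, from 0) of each of the 8 myelin genes in ARC and SCN libraries of the Mu arm (blue) and the Hu arm (orange), 1 point per library, with the mean and SD in black. The groups overlap for each gene, and the Mu libraries of SCN reach lowest for 7 of 8 genes while the Hu libraries of SCN sit high.

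Mag, the adhesion protein on the axonal side of the sheath, differed most between regions. It ranged from 87.1 to 173.6 CPM over the 22 ARC libraries, with a median of 128.5, and from 104.6 to 216.0 CPM over the 22 SCN libraries, with a median of 170.3. The SCN level was higher by 0.35 ± 0.06 (log2, SE), with an adjusted p of 3.86e-06 in edgeR's quasi-likelihood test with Benjamini-Hochberg adjustment. The ranges overlap, but the SCN mean was above the ARC mean at 6 of 6 time points and in 19 of 21 pairs of libraries with the same arm, time and number. In bulk tissue, fewer cells of a type and less RNA per cell cannot be told apart.

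Mog and Opalin were also higher in SCN, so 3 of 8 genes passed in this test and none was lower. Of 15105 genes tested, 73.7% passed in either direction with 36.5% higher and 37.2% lower in SCN, so 3 of 8 higher is near the share of all genes. Mog ranged from 40.3 to 60.8 CPM in ARC (median 49.3) and from 35.5 to 71.2 CPM in SCN (median 60.0), a difference of 0.17 ± 0.05 (adjusted p = 0.00644, edgeR). Opalin ranged from 9.96 to 22.6 CPM in ARC (median 16.3) and from 8.65 to 28.6 CPM in SCN (median 18.2), a difference of 0.17 ± 0.06 (adjusted p = 0.0121, edgeR). For both genes the SCN range contained the ARC range.

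The other 5 genes did not pass. The log2 difference of SCN from ARC was 0.10 for Mbp (95% interval -0.0034 to 0.20, adjusted p = 0.0759 in edgeR), 0.09 for Mobp (-0.02 to 0.19), 0.07 for Cldn11 (-0.02 to 0.17), -0.03 for Cnp (-0.10 to 0.05) and -0.12 for Ermn (-0.26 to 0.01). The members' median was 0.09, and that of all genes tested was -0.00088. Mag and Ermn, at the ends of this order, thus had differences of opposite sign although both are genes of the same sheath, that of Ermn not passing. Mbp passed in 8 of the 44 fits that left out 1 library, Ermn in 2 and Mobp in 1. With the level of the other 7 genes as a covariate, 4 of the 8 and 70.6% to 73.2% of all genes were called. Relative to the others, Mag stayed higher in SCN by 0.29 (log2, adjusted p = 3.75e-09, edgeR) and Mog by 0.08 (adjusted p = 0.00906). Ermn at -0.23 (adjusted p = 0.000212) and Cnp at -0.10 (adjusted p = 0.000122) were lower relative to the others. Opalin was then at 0.08 and no longer called. Most genes in the covariate had a higher estimate in SCN. These values are therefore relative, and do not show that Ermn or Cnp is lower in SCN. That covariate was added after the data were seen.

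The log2 difference of SCN from ARC was more positive in Hu than in Mu mice by value. Ermn and Cnp, with negative estimates over all 44 libraries, also shifted upward in Hu, by 0.15 and 0.18. For these genes that need not be a larger difference in size. Among Hu libraries alone 6 of 8 genes were higher in SCN (31.5% of all genes were, and 59.6% differed in either direction), and among Mu libraries alone only Mag was (30.4% of all genes, and 62.9% in either direction). In Hu the log2 difference was 0.47 for Mag, 0.32 for Opalin, 0.30 for Mog, 0.22 for Mbp, 0.18 for Mobp and 0.17 for Cldn11. In Mu it was 0.26 for Mag, 0.06 for Mog (adjusted p = 0.550, edgeR) and 0.04 for Opalin (adjusted p = 0.697). The test of that change, region by arm, gave no gene at an adjusted p under 0.05. At an unadjusted p under 0.05 it held 4 of 8 myelin genes (Mbp, Mog, Cnp and Opalin) and 1.62% of all genes, with estimates for the 8 genes from 0.15 to 0.26. The 8 genes moved together from library to library, so these 4 are not separate observations. The test also rests on the same SCN libraries as the comparison of Hu with Mu below, and is not a separate result.

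Levels in ARC did not separate the arms. None of the 8 genes was called (0.00663% of 15079 genes were, which is 1 gene), and none had an unadjusted p under 0.05 in edgeR, where 4.24% of all genes did (1.61% with Hu higher). The log2 difference of Hu from Mu ran from -0.02 for Mbp (95% interval -0.17 to 0.13) to 0.13 for Mobp (-0.02 to 0.27). Mbp, for example, had 1756, 2261 and 2681 CPM (lowest, median, highest) in 12 Mu libraries and 1896, 2158 and 2548 CPM in 10 Hu libraries, which lie within the Mu range.

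**Figure D2:**
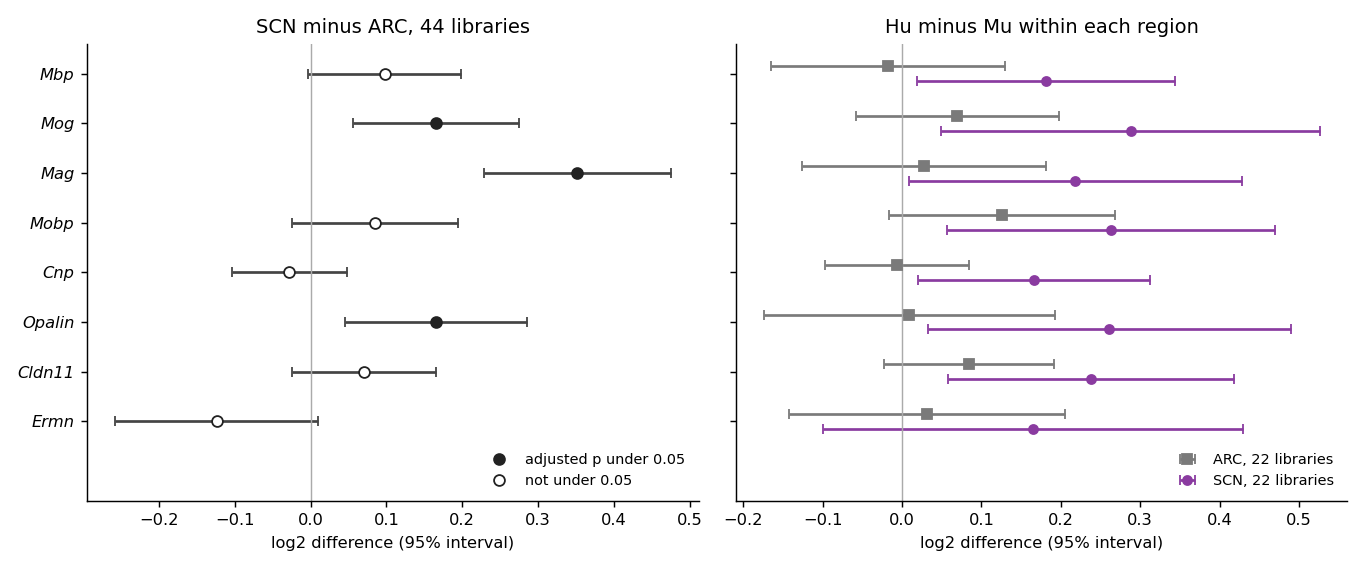
Log2 differences (horizontal axis) with 95% intervals for each gene, left of SCN from ARC over 44 libraries (filled points: adjusted p under 0.05) and right of Hu from Mu within ARC (grey squares) and SCN (purple circles), 22 libraries each. On the left Mag stands at 0.35, and on the right the SCN estimates of the 8 genes lie between 0.17 and 0.29 while those of ARC lie between -0.02 and 0.13.

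In SCN each of the 8 genes had a higher estimate in Hu than in Mu, from 0.17 to 0.29 on the log2 scale (1.12-fold to 1.22-fold). None was called after Benjamini-Hochberg adjustment over 15006 genes, where 0 genes passed (0% called, edgeR), and DESeq2 called 1 gene and none of the 8. At an unadjusted p under 0.05 edgeR gave 7 of the 8, the exception being Ermn, whereas 2.17% of all genes reached it in either direction and 1.01% with Hu higher. The 8 genes moved together from library to library, as described further on, so these 7 are not 7 separate observations. The largest estimate was that of Mog at 0.29 ± 0.11, and the median of the 8 was 0.23 against 0.0044 over all genes. The excess was not uniform over the day. By time point, the Hu mean in SCN was higher at 3 of 6 times for Mog and Ermn and at 4 for Mbp and Opalin. For Mag, Mobp, Cnp and Cldn11 it was higher at 5 of 6.

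In SCN the Mu libraries reached lower than the Hu libraries. The 12 Mu libraries had 1685, 2283 and 2693 CPM of Mbp (lowest, median, highest) where the 10 Hu libraries had 2286, 2499 and 2816 CPM, so that 6 of 12 Mu libraries lay below the lowest Hu library. Mobp, the other gene of compact myelin, ran from 480.8 through a median of 728.8 to 911.8 CPM in Mu and from 679.3 through 841.2 to 898.9 CPM in Hu. For Mobp no Hu library exceeded the highest Mu library, and 4 of 12 Mu libraries were below the lowest Hu library. On the surfaces of the sheath, Mog ran from 35.5 through 52.5 to 67.3 CPM in Mu and from 46.6 through 64.9 to 71.2 CPM in Hu. Mag ran from 104.6 through 167.1 to 196.9 CPM in Mu and from 159.6 through 175.6 to 216.0 CPM in Hu. For each of these genes 5 of 12 Mu libraries were below the lowest Hu library, and above the highest Mu library lay 1 of 10 Hu libraries for Mog and 2 for Mag. Cnp ran from 209.1 through 278.02 to 311.7 CPM in Mu and from 257.8 through 291.2 to 333.9 CPM in Hu. Cldn11 ran from 66.5 through 97.6 to 129.8 CPM in Mu and from 86.8 through 116.04 to 128.9 CPM in Hu. Opalin ran from 8.65 through 16.5 to 27.2 CPM in Mu and from 14.8 through 19.5 to 28.6 CPM in Hu. Ermn ran from 38.3 through 61.2 to 95.1 CPM in Mu and from 54.1 through 72.9 to 94.7 CPM in Hu. The arms overlapped for each of the 8 genes.

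Summed over the 8 genes, SCN libraries of Mu mice ranged from 2654 to 4379 CPM with a coefficient of variation of 15.1%, and those of Hu mice from 3601 to 4461 CPM with 7.31%. The 5 lowest SCN libraries were all Mu, in ascending order number 2 at ZT 2, number 2 at ZT 10, both libraries at ZT 18 and number 1 at ZT 2. The ARC sums were 2838 to 4245 CPM in Mu and 3185 to 4167 CPM in Hu. Leaving out Mu number 2 at ZT 10 lowered the Mog estimate in SCN from 0.29 to 0.23, and over all 22 fits without 1 library the 8 SCN estimates stayed above 0, between 0.08 (Ermn) and 0.34 (Mog). With the level of the other 7 genes as a covariate, an alternative added after the data were seen, the 8 estimates lay between -0.07 and 0.06. Those 7 genes have higher Hu estimates themselves, so the covariate takes out what the 8 share, whatever its origin. That fit therefore cannot test the arm difference. Neuron and axon genes, which correlated with the mean standardised level of the 8 genes over the 22 SCN libraries (r = 0.65, as a description), had overlapping sums in the arms, 5106 to 7721 CPM in Mu and 5191 to 7423 CPM in Hu. Ependymal and tanycyte genes correlated the other way there (r = -0.56). By rank both correlations were weaker, at 0.41 and -0.35 (Spearman). The ependymal and tanycyte sum, with a median of 44.1 CPM in SCN, reached 124.8 CPM in Mu and 66.2 CPM in Hu. The part of either list in the result was not tested.

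Time of day was tested as a 24 h cosine common to both arms. In ARC 3 of the 8 genes had such a rhythm at an adjusted p under 0.05 in edgeR, where 4.53% of 15079 genes did, and in SCN 1 of 8, where 1.52% of 15006 genes did. Opalin was called in both regions with nearly the same peak, and Cldn11 and Ermn in ARC, peaking later. The calls depend on the cosine form. With the 6 time points as separate levels, none of the 8 was called in either region, and the adjusted p was 0.0521 for Opalin, 0.0810 for Cldn11 and 0.279 for Ermn in ARC and 0.232 for Opalin in SCN (edgeR).

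Opalin, the oligodendrocyte glycoprotein, peaked at ZT 4.82 in ARC with an amplitude of 0.38 (log2, mean to peak; 1.69-fold from trough to peak; adjusted p = 0.0033, edgeR). At ZT 2 the ARC libraries had 21.9 and 15.8 CPM in Mu and 21.3 and 22.6 CPM in Hu. At ZT 6 they had 21.4 and 21.1 CPM in Mu and 19.4 CPM in Hu. At ZT 10 the Mu libraries had 20.2 and 18.9 CPM and the Hu libraries 15.8 and 19.8 CPM. None of these libraries was below 15.8 CPM. At ZT 14 the values were 15.4 and 13.6 CPM in Mu and 10.7 and 11.6 CPM in Hu, at ZT 18 they were 9.96 and 12.8 CPM in Mu and 17.4 and 14.3 CPM in Hu, and at ZT 22 they were 16.6 and 16.01 CPM in Mu and 13.9 CPM in Hu. The later times are lower as a set, with 3 libraries reaching into the earlier range.

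In SCN Opalin peaked at ZT 4.85 with an amplitude of 0.41 (1.77-fold from trough to peak; adjusted p = 0.0202, edgeR). Its mean was 26.5 ± 1.05 CPM (SD, n = 3) at ZT 6, with 27.01, 27.2 and 25.3 CPM, and 15.2 ± 1.37 CPM (n = 4) at ZT 14, with 13.9, 15.1, 14.8 and 17.1 CPM. At ZT 18 the Mu libraries had 8.65 and 13.0 CPM and the Hu libraries 20.98 and 17.3 CPM, so the arms did not overlap there. Without Mu number 2 at ZT 6 the adjusted p in SCN was 0.0514, and without Mu number 2 at ZT 18 it was 0.0579. Over the other 20 such fits it stayed under 0.05.

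**Figure D3:**
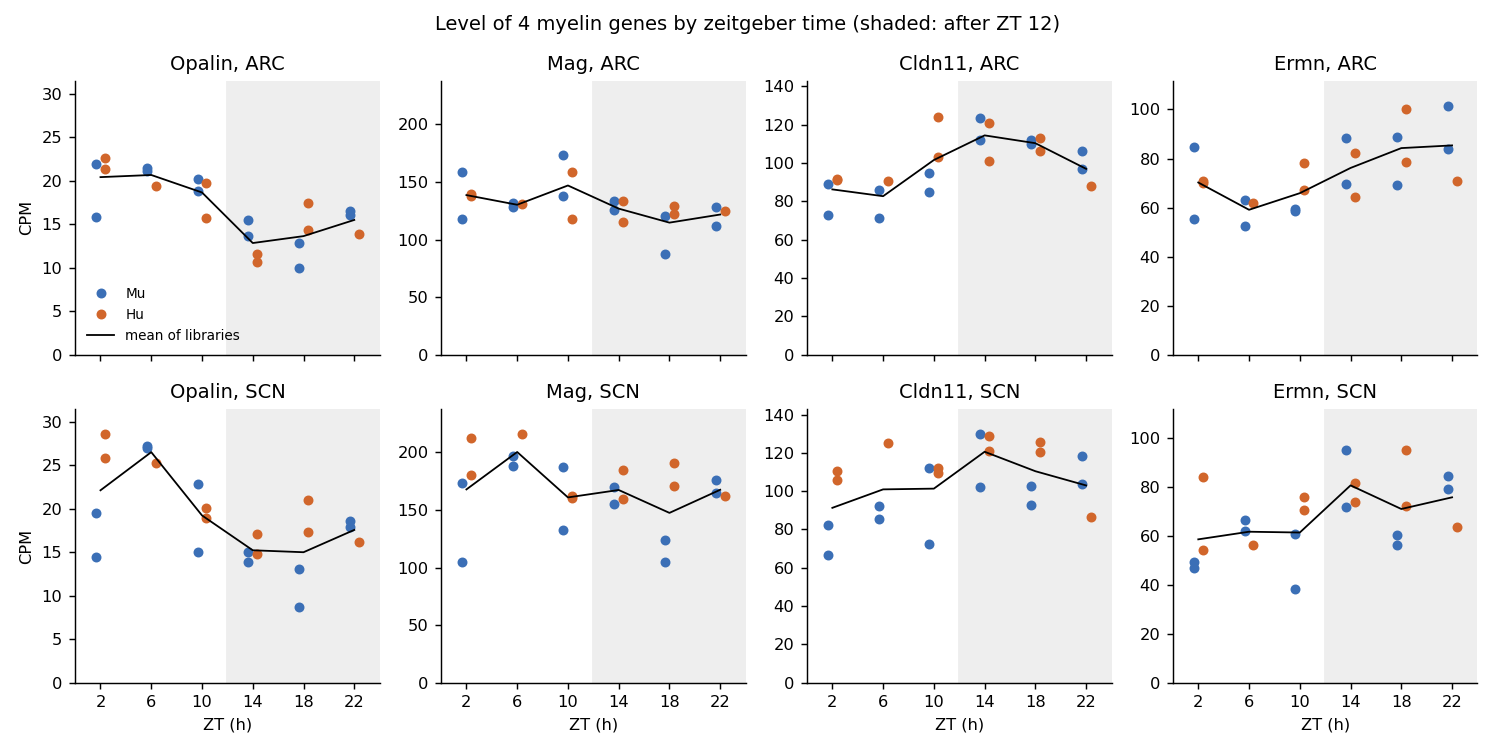
CPM (vertical axis, from 0) of Opalin, Mag, Cldn11 and Ermn against ZT in hours in ARC (top) and SCN (bottom), 1 point per library (blue Mu, orange Hu), with a line through the mean of all libraries at each time and shading after ZT 12. Opalin is highest from ZT 2 to ZT 10 in ARC and at ZT 6 in SCN, whereas Cldn11 is highest at ZT 14.

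Cldn11, the tight-junction protein, ran in the opposite part of the day. In ARC its mean rose from 82.7 ± 9.99 CPM (SD, n = 3) at ZT 6 to 114.5 ± 10.0 CPM (n = 4) at ZT 14. The ZT 6 libraries had 71.5, 86.1 and 90.6 CPM and the ZT 14 libraries 112.2, 123.3, 121.1 and 101.3 CPM, with no overlap. The fitted amplitude was 0.23 with a peak at ZT 15.7 (adjusted p = 0.00456, edgeR). In SCN the estimate was 0.16 with a peak at ZT 15.3 and an adjusted p of 0.261.

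Ermn peaked at ZT 19.1 in ARC with an amplitude of 0.26 (adjusted p = 0.0347, edgeR). Its ARC mean was 59.1 ± 5.67 CPM (SD, n = 3) at ZT 6 and 85.3 ± 15.3 CPM (n = 3) at ZT 22, where the libraries had 101.4, 83.7 and 70.9 CPM. That call was lost in 10 of 22 fits without 1 library, with the highest adjusted p, 0.0985, without Hu number 1 at ZT 18. The others were those without Mu number 1 or 2 at ZT 6, at ZT 10 and at ZT 22, Mu number 2 at ZT 18 and Hu number 1 at ZT 6 and at ZT 10. Opalin and Cldn11 in ARC kept an adjusted p under 0.05 in all 22. In SCN the Ermn estimate was 0.20, peaking at ZT 17.1, with an adjusted p of 0.328.

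The other 5 genes were not called in either region, and their fitted peaks in ARC fell at ZT 16.99 for Mbp, 17.1 for Mobp, 12.1 for Mog, 7.13 for Mag and 6.58 for Cnp, with amplitudes from 0.08 to 0.15. Mag and Cnp thus had their estimates nearest Opalin, and Mbp and Mobp nearest Cldn11 and Ermn. Within the arms, Mu alone gave Opalin (amplitude 0.41, adjusted p = 0.0402) and Cldn11 (0.31, adjusted p = 0.00612) in ARC, where 1.41% of all genes were called in edgeR. Hu alone gave none of the 8 (0.0995% of all genes called), with Opalin at an amplitude of 0.38 and an adjusted p of 0.262. At an unadjusted p under 0.05, Mu alone gave 5 of the 8 in ARC (Mag, Mobp, Opalin, Cldn11 and Ermn, with 14.5% of all genes) and 2 in SCN (Opalin and Cldn11, with 11.6%). Hu alone gave 2 of the 8 in ARC, Opalin and Cldn11 (5.87% of all genes), and 1 in SCN, Opalin (5.52%). In SCN neither arm alone gave any of the 8 (0.207% of all genes in Mu and 0.00666% in Hu). The rhythm was not shown to differ between arms, since that test called 0% of genes in either region. At an unadjusted p under 0.05 it held 1 of the 8 genes in ARC (Cldn11; 1.78% of all genes) and 0 in SCN (1.4%). It was not shown to differ between the regions either, with 0 of the 8 genes at an unadjusted p under 0.05 (9.29% of all genes).

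When the mean level of the other 7 genes was added to the fit, an alternative chosen after the data were seen, the rhythm of Opalin stood at 0.44 in ARC (adjusted p = 0.000254, edgeR) and 0.42 in SCN (adjusted p = 0.000811). Cldn11 stood at 0.23 in ARC (adjusted p = 0.000199) and 0.19 in SCN, where it was now called (adjusted p = 0.0125), both peaking near ZT 16. Ermn stood at 0.28 in ARC (adjusted p = 0.000422) and 0.25 in SCN (adjusted p = 0.0794). These fits called 7 of the 8 genes in ARC, all but Mog, with 4.81% to 7.6% of all genes called, and 3 in SCN (Opalin, Cldn11 and Cnp) with 1.77% to 2.09%. The mean of the other 7 contains genes with their own time course, so these amplitudes are relative to it.

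The 8 genes otherwise varied together. Across libraries of the same arm and time, the deviations of each of the 28 pairs of genes correlated positively in ARC (median r 0.74, range 0.36 to 0.93) and in SCN (median 0.73, range 0.21 to 0.98), over 10 duplicate pairs each. The 2 deviations of a pair mirror each other, so 20 libraries give 10 separate points, which share preparation and depth. Across all 22 ARC libraries, where time adds to the variation, 21 of 28 pairs were positive (median 0.47, range -0.52 to 0.88), and Opalin correlated positively with only 3 of the other 7, Cnp (r = 0.75), Mag (0.64) and Mog (0.26). Its lowest value was with Cldn11 (-0.52), while Cldn11 went with Mobp at 0.88. The fitted peaks set the same genes side by side, but they come from the same libraries and are not separate evidence. In SCN all 28 were positive (median 0.75). Opalin was also the gene whose ARC and SCN levels went together most closely over 21 pairs of libraries with the same arm, time and number (r = 0.81), whereas the sum of the 8 genes did so little (r = 0.22). Time of day was left in these values, and Opalin had the largest fitted amplitude of the 8 in both regions. Libraries of the same number were not shown to be pairs.

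**Figure D4:**
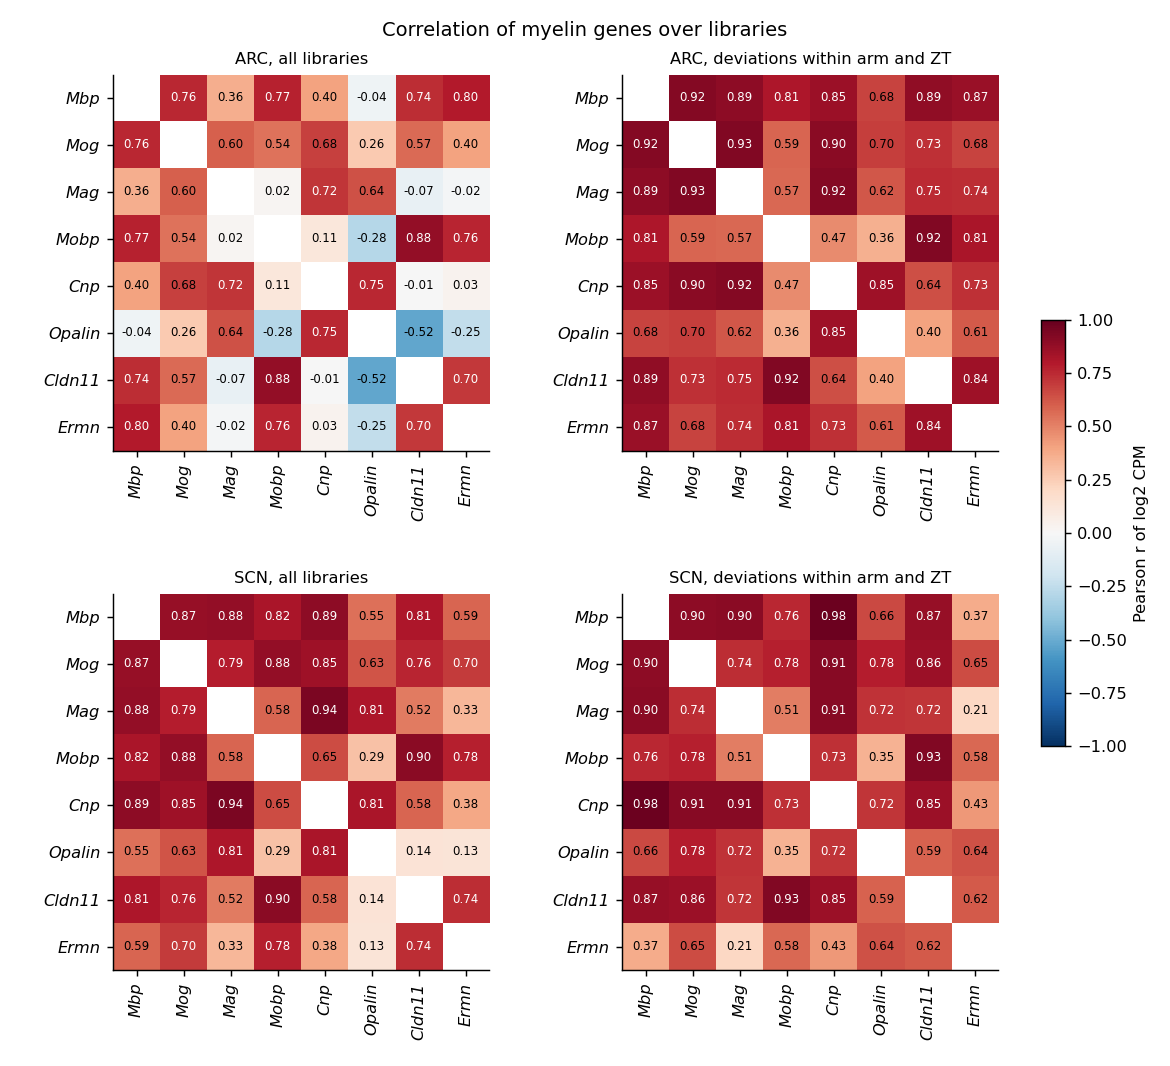
Pearson correlation of log2 CPM between each pair of the 8 genes (colour scale from -1 to 1, values in the cells), over all 22 libraries of ARC (top left) and SCN (bottom left), and over the deviations of duplicates around the average for that arm and time (right, 10 pairs of libraries). The right panels hold positive values alone, and in the top left panel Opalin has negative values down to -0.52.

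Duplicate libraries of 1 arm and time set the scale of error. The SD of log2 CPM between duplicates was 0.08 for Cnp to 0.23 for Ermn in ARC and 0.16 for Cnp to 0.25 for Ermn in SCN, where the median of 9285 genes with a mean log2 CPM of at least 4 was 0.10 and 0.13. Ermn was more variable than 95.6% of these genes in ARC, and Cnp than 31.4%. In SCN the arms differed. Over 6 Mu pairs the SD was 0.19 for Mbp to 0.27 for Opalin. Over 4 Hu pairs it was 0.05 for Cldn11 to 0.13 for Opalin, apart from Ermn at 0.27. The median of the 9285 genes in SCN was 0.11 in Mu and 0.14 in Hu. The arm tests took 1 spread per gene for both arms. The widest duplicate pair was that of Mu at ZT 10 in SCN, whose libraries differed 1.73-fold in Mog.

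Of 16 other genes of mature oligodendrocytes and myelin, 8 were higher in SCN, 3 lower and 5 not called, and their median log2 difference was 0.12. The 11 of 16 called lie near the 73.7% of all genes. Sirt2, Hapln2 and Gjc3 had the smallest p-values among those higher (Hapln2 by 0.64, adjusted p = 6.7e-10 in edgeR), and Nkx6-2, Ugt8a and Omg were lower (Nkx6-2 by -0.36). In the arm comparison none of the 16 was called, and 2 in ARC (4.24% of all genes) and 4 in SCN (2.17%) had an unadjusted p under 0.05. A common rhythm was called for 3 in ARC, Pllp, Nkx6-2 and Mal (4.53% of all genes), and for Pllp in SCN (1.52%). Pllp, a proteolipid of the sheath, peaked at ZT 6.53 in ARC (adjusted p = 0.0104) and ZT 5.67 in SCN (adjusted p = 0.00869), near Opalin, and Mal, another proteolipid, at ZT 15.9 in ARC (adjusted p = 0.0439), near Cldn11. Pllp and Mal were named for their time course after their values were seen.

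Among 6 regulators of the oligodendrocyte lineage, Myrf (0.57), Zfp488 (0.38), Sox10 (0.34) and Olig2 (0.24) were higher in SCN and Nkx2-2 was lower (-0.27). Myrf, the factor that switches on myelin genes, had an adjusted p of 7.9e-11 in edgeR. Olig1 and Olig2 had a common rhythm in ARC, with peaks at ZT 22.2 and ZT 21.1 (adjusted p = 0.00538 and 0.0324, edgeR). Of all genes, 4.53% had one there. None of the 6 had one in SCN, where 1.52% of all genes did. Of 7 genes of precursors and newly formed oligodendrocytes, 3 were higher in SCN (Cspg4, Neu4 and Bcas1) and 2 lower (Vcan and Pdgfra). Cspg4 and Pdgfra, both classic precursor genes, moved in opposite directions, by 0.53 and -0.33. The region counts of regulators, precursors and other cell types were read against the 36.5% of all genes higher and 37.2% lower in SCN. The 3 of 7 precursor genes higher lie near that share. Vascular genes were higher for 6 of 6 and microglial genes for 5 of 6. Astrocyte genes were higher for 2 of 8 and lower for 3, and ependymal and tanycyte genes higher for 1 of 6 (Crym) and lower for 4. Among astrocyte genes, Gfap, the filament gene (0.35), and Aldh1l1 (0.26) were higher, and Agt (-0.61), Aqp4 (-0.36) and Slc1a3 (-0.13) were lower. The part of these lists in the difference of the myelin genes was not tested.

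Among the genes outside the 8 whose level followed them most closely were Bcas1 (r = 0.87 in ARC and 0.94 in SCN, 22 libraries each, against the mean standardised level of the 8) and Trf (0.85 and 0.96). Both correlations were over 0.8 for 8 of 15097 genes, which include Bcas1, Trf, Gm20425, Lpar1, Gatm, Slc44a1 and Cdc42ep2. Pdlim2 and Sept4 were also among the first 10. Gm20425 overlaps Trf by 26307 bases on the same strand in the GENCODE annotation, so the split of reads between them is uncertain. The same holds for Cnp and Ermn if strand was not used in counting, since Dnajc7 overlaps Cnp by 8912 bases and Galnt5 overlaps Ermn by 748 bases on the opposite strand. The libraries share depth and preparation, and the correlations are descriptions.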

How the data were processed

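RNA sequencing libraries of ARC and SCN tissue from Hu and Mu mice were made with a directional kit from column-purified RNA, per the labels' protocols. Per the submitters' processing notes, STAR was the aligner and GRCm38 and mm10 are the mouse builds. The counting program, its use of strand, the annotation and any filter are not given in the sources used here. The authors deposited raw counts per gene, whole numbers with 1 column per library and no normalization. Of 20415 rows, 20329 matched a symbol.

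The 8 genes and the marker lists were chosen with earlier results of these data known. Besides the 8, each list's counts are given with up to 3 genes per direction of smallest region p-value, some reference genes, and the 10 genes most correlated with the 8. Some of these genes are not reported here. All tests ran on the whole table in R 4.3.3 with edgeR 4.0.16 (filterByExpr, TMM scaling, quasi-likelihood F tests, Benjamini-Hochberg, threshold 0.05). Region was tested in 44 libraries with arm and time as 1 factor of combinations, arm and rhythm within 22 libraries per region with a 24 h cosine and sine (the arms' own terms for the level, common terms for the common rhythm). CPM are scaled by TMM, and log2 CPM use a prior count of 2. Depth was 23.7 to 47.1 M counts per library. The fits were tested on simulated data. In ARC and SCN 1 column each of Hu at ZT 22 could be placed in its group but not tied to a number. Alternatives were other scaling, no filter, DESeq2 1.42.0, a replicate block, time as a factor, each arm alone, the members' level as covariate, and each library left out. Gene positions and exon lengths are from GENCODE vM21, which may differ from the annotation counted.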

Additional observations from a re-analysis of the deposited data

Results flagged for a closer look

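In a group of 10 libraries the lowest or highest was compared with its nearest neighbour, for each of the 8 genes, which made 16 groups of Hu libraries. Chance flags about 1 in 20 such groups. The SCN library of Hu at ZT 22 stood apart at the low end for 2 genes, with 679.3 CPM of Mobp and 86.8 CPM of Cldn11. It is 1 of the columns without a number, and the 2 genes covary, so these are not separate signals.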

How the results depend on the processing

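Size factors and no filter on low counts, run for region, arm and rhythm, and unscaled total counts, run for region, changed no call on the 8 genes. Without a filter, 40 genes had a rhythm in Hu ARC. DESeq2 called more: a rhythm for 514 genes and 4 of the 8 in Mu ARC, 92 genes and 1 of the 8 in Hu ARC, 289 genes and 1 of the 8 in Mu SCN and 22 genes in Hu SCN, a common rhythm for 1118 genes in ARC and 806 in SCN, and an arm difference for 14 genes in ARC and 1 in SCN. With time as a factor a common rhythm was called for 154 genes and 0 of the 8 in ARC and 31 genes and 0 of the 8 in SCN, and the arm estimate of Opalin in ARC was -0.00963. For region, 6 of the 8 were called in Hu and 1 in Mu, with Cnp at 0.081 in Hu and Cldn11 at -0.00173 in Mu. With the members' mean level as a covariate a rhythm was called for 47 genes in Mu SCN and 3 in Hu SCN. With the other 7 members' level as covariate, added after the data were seen, the region estimate of Cldn11 was -0.0094. Arm estimates were then -0.0075 (Mag), -0.042 (Opalin) and -0.015 (Ermn) in ARC and -0.00195 (Mag) and -0.073 (Ermn) in SCN. These estimates are relative to the level of the other 7.

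Same-numbered libraries were not shown to be pairs: deviations of ARC and SCN libraries correlated at a mean of 0.12 over 10 separate values, since duplicates mirror each other (range -0.19 to 0.31, 6 over 0.1). With the replicate block, 5 genes had a rhythm in Hu ARC, 12 in Mu SCN, 0 in Hu SCN and 148 a common one in SCN. The block gave arm estimates in ARC of 0.0023 for Mbp and 0.014 for Cnp and an SCN amplitude of 0.013 for Mbp, and changed no call on the 8.

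Leaving out each library in turn, the 8 genes called for region numbered 3 to 5 (5 without Mu number 1 at ZT 2 in ARC), for a rhythm in Mu ARC 1 to 2 and in Mu SCN 0 to 1, and for a common rhythm in SCN 0 to 1. For region the all-gene counts were 10962 to 11230, where the fit with all libraries called 11129 (73.7%). Other all-gene counts were 1 to 2 for arm in ARC and 0 to 1 for arm in SCN. For a rhythm they were 86 to 282 and 5 to 18 in Mu and Hu ARC, and 10 to 56 and 0 to 3 in Mu and Hu SCN. For a common rhythm they were 429 to 814 in ARC and 109 to 445 in SCN. ARC arm estimates crossed 0 for Mbp (-0.057 to 0.0097), Mag (-0.0087 to 0.063), Cnp (-0.028 to 0.013), Opalin (-0.047 to 0.057) and Ermn (-0.0086 to 0.066), and the peak of Mbp in SCN moved by over 6 h at amplitudes of 0.00082 to 0.032. With the lone Hu libraries at ZT 6 and ZT 22, precision there rests on the spread of the other groups.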
